A study of Homo sapiens with 18 samples.

Results

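The comparison described here set U87 libraries treated with A41 against U87 libraries treated with bexarotene. Its members were chosen by sample title: the 3 A41 libraries and the 3 bexarotene libraries, 6 of the 18 RNA-sequencing libraries of the series. U87 is an established human glioblastoma cell line with no genetic modification recorded, and the study asked how rexinoids alter its gene expression. Cells received a single dose of 100 nM A41, 100 nM A34, 100 nM A80, 100 nM A98 or 100 nM bexarotene, or ethanol alone, for 24 h, with 3 libraries per group; bexarotene and ethanol served as the study's controls. A34, A41, A80 and A98 are rexinoids known here only by their codes. The labels tie no library to a culture of its own, so each p-value reflects only how far these libraries scatter, and that scatter may be technical.

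Rexinoids bind the retinoid X receptors (RXRs), which pair on DNA with many other nuclear receptors. With a retinoic acid receptor (RAR) as partner they act on genes such as CYP26B1, DHRS3 and STRA6, whose products clear, store or import retinoids; with a liver X receptor (LXR) they act on genes of sterol efflux and fatty acid synthesis such as ABCA1 and SCD. Bexarotene is an RXR agonist used in the clinic.

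Levels are given as TPM (transcript abundance per length, relative to all transcripts of the library) after scaling the libraries to each other, and differences as A41 minus bexarotene on a log2 scale of scaled TPM + 1, where the added 1 shrinks the fold change of weakly expressed genes. Of the 6 libraries, A41 replicate 2 and bexarotene replicate 1 held 56.1% and 44.9% of their TPM in ribosomal RNA genes, as did ethanol replicate 2 with 35.5%; the other 15 libraries held 0.317% to 4.32%. Aligned sequence, read as the ceiling of coverage over FPKM, was 1.92 to 3.20 gigabases in the A41 libraries and 2.00 to 2.21 gigabases in the bexarotene libraries. Genes that mark mesenchymal glioma cells were abundant in both groups. The 7 listed summed to 7822 to 9176 scaled TPM with A41 and 7928 to 8967 scaled TPM with bexarotene. Vimentin (VIM) had 3393 to 3668 TPM with A41 and 3774 to 4181 TPM with bexarotene. VIM was thus lower in every A41 library, while 5 of the 7 markers had positive differences. Of 8 leukocyte markers, CD68 and CSF1R passed the filter on low values, and the list summed to 177.5 to 245 scaled TPM with A41 and 175.5 to 203 scaled TPM with bexarotene. CD68 made up most of that sum, AIF1 was listed at 0 in the 6 libraries, and the pan-leukocyte marker PTPRC stayed at or under 0.0728 scaled TPM. Of 8 astrocyte markers, CLU, GJA1, SLC1A3 and GFAP passed it, and the list summed to 299.8 to 374 scaled TPM with A41 and 274 to 322 scaled TPM with bexarotene. S100B was listed at 0 in every A41 library and reached at most 0.174 scaled TPM with bexarotene. In these marker lists 0 genes passed limma's threshold between the rexinoids (0 leukocyte, 1 astrocyte and 2 mesenchymal markers at an unadjusted p under 0.05).

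Of 14 retinoic acid receptor target genes tested, 6 were higher with A41 than with bexarotene, among them CYP26B1, DHRS3 and STRA6. Of the lipid genes ABCA1, SCD and ACSL3, which bexarotene raised against ethanol, 0 passed the threshold between the rexinoids. In limma's moderated test over 18269 genes, 19 genes were higher with A41 (0.104% of the genes tested) and 2 were lower (0.0109%) at a Benjamini-Hochberg adjusted p under 0.05. At an unadjusted p under 0.05 there were 1138 genes (6.23%). The median difference over all genes tested was -0.0054. In all 21 genes the 3 A41 libraries lay wholly above or wholly below the 3 bexarotene libraries. Over all genes tested, 5.53% had that arrangement upward and 4.35% downward. The 21 were picked for their difference between these same libraries, so their separation largely follows from that choice and adds no support. In bulk libraries, fewer cells of a type and less RNA per cell cannot be told apart. The count of higher genes was 9 without A41 replicate 1, 9 without A41 replicate 2, 7 without A41 replicate 3, 8 without bexarotene replicate 2 and 8 without bexarotene replicate 3. CYP26B1, DHRS3, ID1, PTGES, STRA6 and TGM2, 6 of the 21, passed the threshold in each of the 6 fits that omit 1 library, and also without the 3 libraries rich in ribosomal RNA, a fit in which 8 genes were higher. With TPM as deposited, not scaled between libraries, 1 gene was higher, STX16-NPEPL1, so those 6 genes missed the threshold there. With only the 6 libraries in the fit 3 were higher, CYP26B1, DHRS3 and STX16-NPEPL1. ID1, PTGES, STRA6 and TGM2 missed the threshold in that fit, and ID1 missed it also with ribosomal RNA genes removed. The removal fit brought TPM to the same total per library and left out the median of ratios scaling. The fits that omit 1 library still take their spread from the other groups too.

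**Figure D1:**
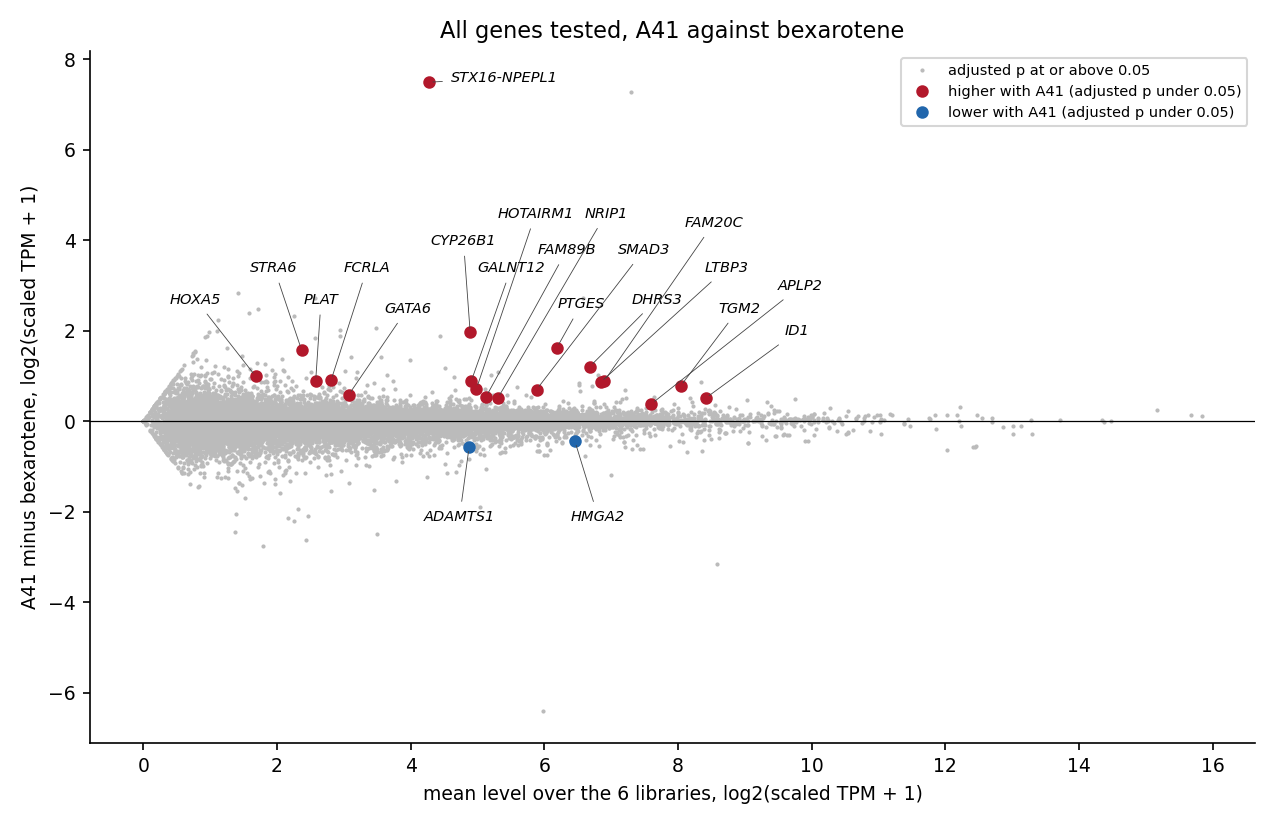
Difference A41 minus bexarotene (y axis, log2(scaled TPM + 1)) against the mean level over the 6 libraries (x axis, same scale) for the 18269 genes tested. Red dots are the 19 genes higher with A41 and blue dots the 2 lower at an adjusted p under 0.05; CYP26B1, PTGES and STRA6 stand highest among the red dots after STX16-NPEPL1.

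Among 17 retinoid metabolism genes tested, 3 were higher with A41 past the threshold and 0 were lower (3 at an unadjusted p under 0.05). The median difference of the 17 was 0.11, and 7 of the 17 differences were negative. The 3 genes were CYP26B1, DHRS3 and STRA6, which had some of the widest gaps and are counted again with the RAR targets below. CYP26B1 (ENSG00000003137, chr2:72129238-72148038, minus strand), the cytochrome P450 that oxidises retinoic acid, had 67.5, 54.5 and 52.0 TPM in the A41 libraries, against 15.9, 12.7 and 13.7 TPM in the bexarotene libraries. The groups were far apart, with a difference of 1.96 ± 0.20 (SE, log2; limma adjusted p = 0.000253). DHRS3 (ENSG00000162496, chr1:12567910-12618210, minus strand), which reduces retinaldehyde back to retinol, had 159, 145 and 161 TPM with A41, against 62.1, 70.1 and 67.8 TPM with bexarotene. Its difference of 1.21 ± 0.09 had the smallest p of all genes (limma adjusted p = 6.48e-06). STRA6 (ENSG00000137868, chr15:74179466-74212267, minus strand), the membrane receptor through which cells take up retinol, had 9.496, 6.97 and 7.46 TPM with A41, against 2.97, 1.57 and 1.61 TPM with bexarotene. It differed by 1.58 ± 0.21 (limma adjusted p = 0.00541), and its groups did not overlap. CYP26A1, the better known relative of CYP26B1, reached at most 0.0503 scaled TPM in the A41 libraries and was listed at 0 in the bexarotene libraries, below the filter on low values.

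The sequences next to the starts of CYP26B1, DHRS3 and STRA6 are shown because their products act on retinoids and all 3 passed the threshold. They are the bases upstream of the deposited gene span, 5′ to 3′ on the gene's strand, from RefSeq (GRCh38.p14), at chr2:72148039-72148112 for CYP26B1, chr1:12618211-12618460 for DHRS3 and chr15:74212268-74212509 for STRA6; capitals mark, on either strand, the receptor motif AGGTCA or a variant of it (AGTTCA is the first variant searched, GGGTCA the second, and GGTTCA the last).
CYP26B1: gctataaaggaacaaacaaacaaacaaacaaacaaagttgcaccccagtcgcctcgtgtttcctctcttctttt
DHRS3: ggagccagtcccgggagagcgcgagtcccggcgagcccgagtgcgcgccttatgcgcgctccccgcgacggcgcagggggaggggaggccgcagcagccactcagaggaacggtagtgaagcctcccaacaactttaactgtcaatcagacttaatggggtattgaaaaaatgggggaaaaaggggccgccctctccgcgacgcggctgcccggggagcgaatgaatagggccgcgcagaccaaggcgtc
STRA6: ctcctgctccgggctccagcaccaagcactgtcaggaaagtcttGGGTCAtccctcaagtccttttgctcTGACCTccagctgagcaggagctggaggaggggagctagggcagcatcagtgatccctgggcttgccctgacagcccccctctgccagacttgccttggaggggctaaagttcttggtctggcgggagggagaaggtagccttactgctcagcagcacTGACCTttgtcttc
The STRA6 window held 3 such motifs and the other 2 windows none. Among the 14 of 21 genes with a RefSeq window, 3 held such a motif in the 250 bases (21.4%), against 33.8% of 35116 promoters of the same length. Direct repeats of these motifs with 1, 2, 4 or 5 bases between them were in 0 of the 14 and in 0.0968%, 0.0313%, 0.074% and 0.074% of all promoters. Of the 14 windows, those of APLP2, FCRLA, LTBP3 and SMAD3 had 0 bases outside the deposited gene span, and that of CYP26B1 had 74. A missing match says only that these letters are not in this window.

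Of 22 listed RAR target genes, 14 passed the filter on low values; 6 were higher with A41 past the threshold and 0 were lower. Their median difference was 0.60, against -0.0054 over all genes tested, and 13 of the 14 differences were positive. The list was drawn up with earlier results of these data known. The 6 were CYP26B1, DHRS3, STRA6, TGM2, NRIP1 and HOXA5. HOXA5, whose values are uncertain, is counted again with the HOXA cluster below, and NRIP1 again among the coregulators. TGM2 (ENSG00000198959), a transglutaminase that cross-links proteins, had 358, 353 and 319.8 TPM with A41, against 226, 191 and 185 TPM with bexarotene, a difference of 0.78 ± 0.08 (limma adjusted p = 0.000453). NRIP1, a corepressor of nuclear receptors, had 50.5, 44.9 and 43.1 TPM with A41 and 30.8, 34.6 and 31.1 TPM with bexarotene, differing by 0.51 ± 0.09 (limma adjusted p = 0.0334). The groups of both genes did not overlap; NRIP1 lost the threshold whichever library was left out. Among the listed targets that missed the threshold, CRABP2, which carries retinoic acid to its receptor, differed by 0.58 (95% interval -0.03 to 1.20), and RARB, itself a receptor for retinoic acid, by 0.32 (-0.11 to 0.76).

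**Figure D2:**
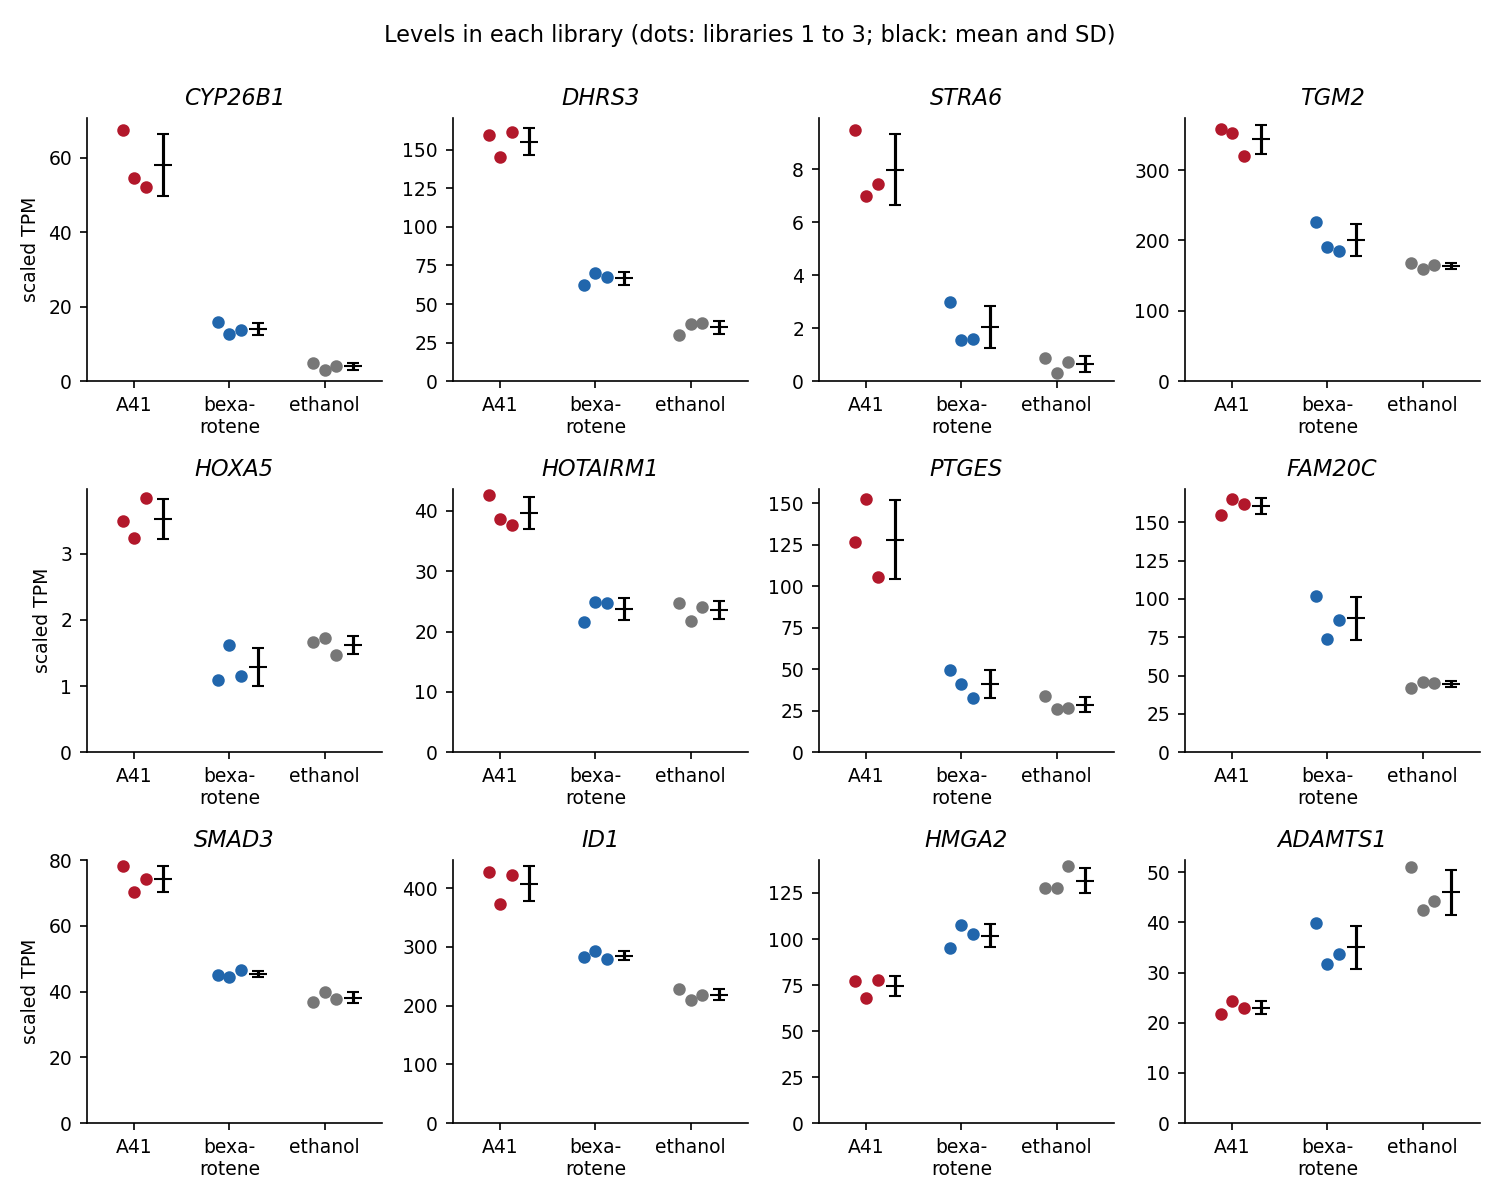
Scaled TPM (y axis, from 0) in each library of A41, bexarotene and ethanol for 12 genes; dots are libraries 1 to 3 and black marks the mean with its SD. The A41 dots lie above every bexarotene dot in 10 panels and below every bexarotene dot for HMGA2 and ADAMTS1.

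Genes of the HOXA cluster, an ordered run of homeobox genes on chromosome 7 that retinoic acid is known to act on, included 2 past the threshold among 6 tested, and all 6 differences were positive (median 0.64). HOXA5 (chr7:27141052-27143681, minus strand), a homeobox transcription factor, had 3.50, 3.24 and 3.84 TPM with A41, against 1.10, 1.61 and 1.15 TPM with bexarotene, a difference of 0.99 ± 0.16 (limma adjusted p = 0.0183). HOTAIRM1, a noncoding RNA of the cluster, had 42.7, 38.7 and 37.7 TPM with A41, against 21.6, 24.8 and 24.7 TPM with bexarotene, a difference of 0.72 ± 0.11 (limma adjusted p = 0.0158). Neither gene passed the threshold for bexarotene against ethanol: bexarotene minus ethanol was -0.20 (-0.53 to 0.13) for HOXA5 and 0.01 (-0.23 to 0.24) for HOTAIRM1. HOXA5 overlaps HOXA3, which differed by 0.67 (limma adjusted p = 0.563). With no word on strand handling in the sources, reads of overlapping or antisense genes of the cluster cannot be told apart, so the values of both HOXA5 and HOTAIRM1 are uncertain. HOTAIRM1 lost the threshold whichever library was left out, and HOXA5 kept it only without bexarotene replicate 2.

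The receptors themselves did not differ past the threshold between A41 and bexarotene. RXRA had 5.17, 5.36 and 5.73 TPM with A41 and 4.49, 5.42 and 5.95 TPM with bexarotene, a difference of 0.04 (-0.25 to 0.32). RXRB, RARA and RARG, receptors of the same families, differed by -0.05 (-0.29 to 0.20), -0.02 (-0.43 to 0.39) and 0.10 (-0.13 to 0.33). Of 16 receptor genes tested, 0 were past limma's threshold (2 at an unadjusted p under 0.05), with a smallest adjusted p of 0.321 for VDR, the vitamin D receptor, at 29.2, 28.96 and 31.3 TPM with A41 against 23.2, 23.3 and 23.2 TPM with bexarotene. VDR and NR1H2, which encodes an LXR, did not overlap between groups, with differences of 0.35 (0.15 to 0.54) and 0.34 (0.10 to 0.57). The other LXR gene, NR1H3, had a negative difference of -0.31 (-0.63 to 0.02), and PPARG differed by 0.22 (-0.46 to 0.90). VDR did pass the threshold for A41 against ethanol (0.49, limma adjusted p = 0.018). It also passed against the mean of A34, A80 and A98 (0.42, limma adjusted p = 0.0238). These contrasts share the A41 libraries. Bexarotene minus ethanol was 0.14 (-0.05 to 0.34) for VDR. Of 16 coregulators, NRIP1 alone passed the threshold in the fit of all 18 libraries.

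Among genes past the threshold, only STX16-NPEPL1 and CYP26B1 had larger differences than PTGES. PTGES (ENSG00000148344, chr9:129738331-129753042, minus strand), the inducible synthase that makes prostaglandin E2, had 127, 153 and 105 TPM with A41, against 49.6, 41.1 and 32.6 TPM with bexarotene, a difference of 1.62 ± 0.16 (limma adjusted p = 0.00025). The groups were far apart, while PTGS2, the cyclooxygenase that makes its substrate, differed by -0.15 (-0.86 to 0.57). Of 11 prostaglandin E2 pathway genes tested, PTGES alone passed the threshold and 8 had negative differences.

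Genes of transforming growth factor beta (TGF-beta) signalling included 3 higher and 0 lower of 26 tested, with a median of 0.08 over the list. SMAD3, which carries the TGF-beta signal to the nucleus, had 78.1, 70.3 and 74.3 TPM with A41, against 45.1, 44.6 and 46.5 TPM with bexarotene (difference 0.70 ± 0.10, limma adjusted p = 0.0086). LTBP3, which holds latent TGF-beta in the matrix, had 141, 174 and 149 TPM with A41, against 97.5, 74.5 and 82.3 TPM with bexarotene (0.86 ± 0.13, limma adjusted p = 0.0179). ID1, an inhibitor of basic helix-loop-helix factors, had 427, 374 and 423 TPM with A41, against 283, 293 and 279.9 TPM with bexarotene (0.51 ± 0.06, limma adjusted p = 0.00267). No A41 library overlapped a bexarotene library in these genes, while the ligand TGFB1 (0.00, -0.20 to 0.20), the receptor TGFBR1 (0.10, -0.14 to 0.33) and SMAD2 (-0.19, -0.55 to 0.17) did not pass the threshold. SMAD3 lost the threshold without A41 replicate 3 or bexarotene replicate 2.

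FAM20C, the Golgi kinase that phosphorylates secreted proteins, had 155, 165 and 162 TPM with A41, against 102, 73.8 and 86.4 TPM with bexarotene (0.88 ± 0.13, limma adjusted p = 0.0131). GALNT12, which starts mucin-type glycosylation, had 44.4, 39.2 and 36.2 TPM with A41, against 20.01, 23.5 and 19.9 TPM with bexarotene (0.88 ± 0.13, limma adjusted p = 0.0137). They were the only ones past the threshold among 8 secretory kinase and GALNT genes tested; the relatives FAM20B, GALNT1 and GALNT2 differed by -0.09, -0.01 and -0.01. PLAT, the tissue plasminogen activator, had 6.69, 6.96 and 7.77 TPM with A41, against 3.26, 3.22 and 3.73 TPM with bexarotene (0.89 ± 0.16, limma adjusted p = 0.0355), 1 of 20 coagulation and fibrinolysis genes past the threshold. The other genes higher with A41 were FCRLA (0.90), the transcription factor GATA6 (0.59), FAM89B (0.54) and APLP2, a relative of the amyloid precursor protein (0.38), with limma adjusted p-values of 0.0355, 0.0355, 0.0327 and 0.0334. FAM20C and LTBP3 kept the threshold only without A41 replicate 1 or bexarotene replicate 1, GALNT12 only without A41 replicate 3 or bexarotene replicate 2, and APLP2 only without bexarotene replicate 1; PLAT, FCRLA, GATA6 and FAM89B lost it whichever library was left out.

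Both genes that were lower with A41 had negative bexarotene minus ethanol estimates too, -0.37 for HMGA2 and -0.38 for ADAMTS1. HMGA2 (chr12:65824460-65966291, plus strand), a chromatin protein of embryonic and tumour cells, had 77.5, 68.2 and 77.9 TPM with A41, against 95.1, 108 and 103 TPM with bexarotene (-0.45 ± 0.08, limma adjusted p = 0.0334). ADAMTS1 (chr21:26835755-26845409, minus strand), a secreted protease of the matrix, had 21.7, 24.3 and 23.0 TPM with A41, against 39.9, 31.6 and 33.6 TPM with bexarotene (-0.58 ± 0.10, limma adjusted p = 0.0415). The groups did not overlap in either gene. ADAMTS1 lost the threshold whichever library was left out, and HMGA2 kept it only without bexarotene replicate 1.

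**Figure D3:**
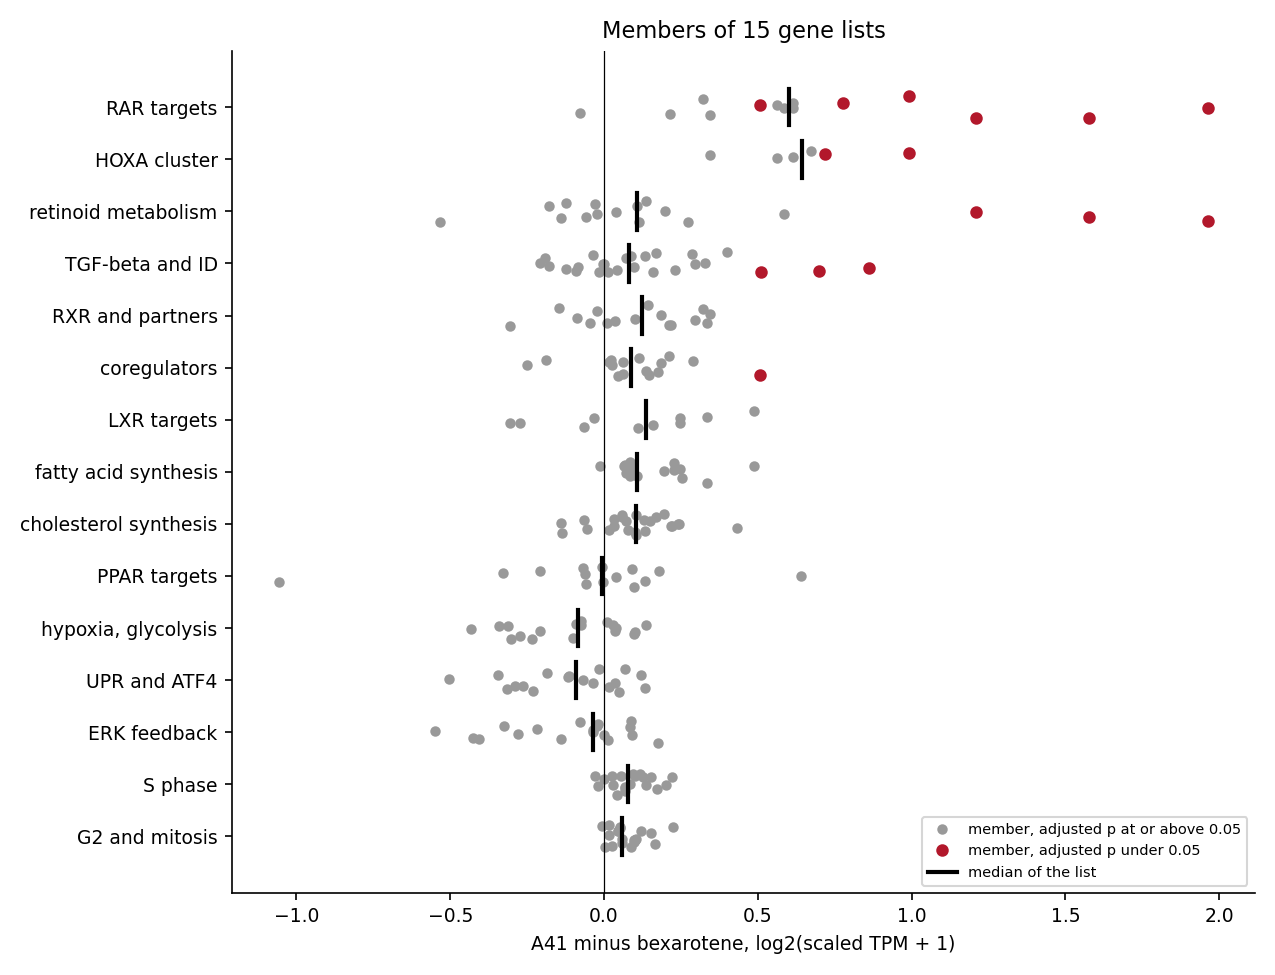
A41 minus bexarotene (x axis, log2(scaled TPM + 1)) for the tested members of 15 gene lists (rows); each dot is a gene, red where the adjusted p is under 0.05, and black bars are list medians. The RAR target and HOXA medians stand at 0.60 and 0.64, and the lipid lists lie near 0.1 with no red dot. A gene on more than 1 list, such as HOXA5, is drawn in each.

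Of the 10 genes that bexarotene raised against ethanol past the threshold (0.0547% of genes tested), DHRS3, CYP26B1, FAM20C and ID1 were higher still with A41, and the other 6 did not pass the threshold between the rexinoids. ABCA1, the cholesterol efflux pump, had 64.1, 55.0 and 59.0 TPM with A41 and 44.9, 51.9 and 52.9 TPM with bexarotene, against 21.98, 24.2 and 22.4 TPM with ethanol. Its difference between the rexinoids was 0.25 (-0.01 to 0.50; limma adjusted p = 0.81). SCD, the stearoyl-CoA desaturase, had 195, 153 and 163 TPM with A41 and 116, 122 and 123 TPM with bexarotene, against 49.6, 47.3 and 39.8 TPM with ethanol. The SCD groups did not overlap, with a difference of 0.49 (0.15 to 0.82), but it missed the threshold over all genes (limma adjusted p = 0.53). OLMALINC, a noncoding RNA beside SCD, and ACSL3, which activates fatty acids, differed by 0.07 (-0.31 to 0.44) and 0.09 (-0.07 to 0.24). The remaining pair had negative estimates and groups that did not overlap. RNU6-8, whose reads are uncertain because copies of the small nuclear RNA U6 are nearly identical, had 0.294, 0.533 and 0.944 TPM with A41, against 3.25, 2.66 and 2.34 TPM with bexarotene (-1.25, -1.78 to -0.72; limma adjusted p = 0.0788). LINC00339, a noncoding RNA, had 8.81, 7.15 and 6.455 TPM with A41, against 9.798, 9.25 and 8.93 TPM with bexarotene (-0.29, -0.54 to -0.05; limma adjusted p = 0.697). Over whole lists, 0 of 10 LXR targets, 0 of 15 fatty acid synthesis genes and 0 of 24 cholesterol synthesis genes passed limma's threshold (2, 5 and 3 at an unadjusted p under 0.05), with medians of 0.14, 0.11 and 0.10. Over all genes tested, 6.23% had an unadjusted p under 0.05. Differences were positive in 6 of the 10 LXR targets, 14 of the 15 fatty acid synthesis genes and 20 of the 24 cholesterol synthesis genes. By sign alone, 18 of 20 S phase genes and 19 of 20 genes of G2 and mitosis were positive too (1 and 0 at an unadjusted p under 0.05). In hypoxia and glycolysis 7 of 18 were positive, and in the unfolded protein and ATF4 response 6 of 18. All A41 libraries lay above all bexarotene libraries in 6 fatty acid synthesis genes, 5 cholesterol synthesis genes and 3 LXR targets. The same held for 3 S phase genes and 1 gene of G2 and mitosis. Over all genes tested the share was 5.53%. In 1 LXR target all A41 libraries lay below, against 4.35% of all genes tested. Of the other lipid genes named whatever their p, SREBF1 differed by 0.25 (-0.20 to 0.69) and FASN by 0.33 (0.05 to 0.62). ANGPTL4 differed by 0.64 (-0.66 to 1.94). None of them passed the threshold, and ABCG1 and MYLIP fell below the filter on low values. A p that misses the threshold does not show that the rexinoids act alike on these genes. For ABCA1 the interval reaches to 0.50.

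Set beside ethanol, which both comparisons share, the same genes gave the following estimates. CYP26B1 stood 3.58 (3.16 to 4.004) above ethanol with A41 and 1.62 (1.20 to 2.04) with bexarotene; DHRS3 stood 2.13 above ethanol with A41 and 0.92 with bexarotene. ABCA1 stood 1.34 (1.08 to 1.59) above ethanol with A41 and 1.09 (0.83 to 1.35) with bexarotene. Of the 21 genes, 20 passed the threshold for A41 against ethanol, where 0.755% of all genes did, and 4 for bexarotene against ethanol. The 21 were picked for their difference between these same A41 and bexarotene libraries, so both counts depend on that choice. Missing the threshold did not mean no shift with bexarotene. Its mean lay between the ethanol and A41 means in 18 of the 21. In 15 of the 21, every bexarotene library lay on the A41 side of every ethanol library. The shares of all genes tested with these 2 arrangements were not worked out. Both counts also depend on how the 21 were picked. The interval of bexarotene minus ethanol covered 0 in 5 of the 21.

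**Figure D4:**
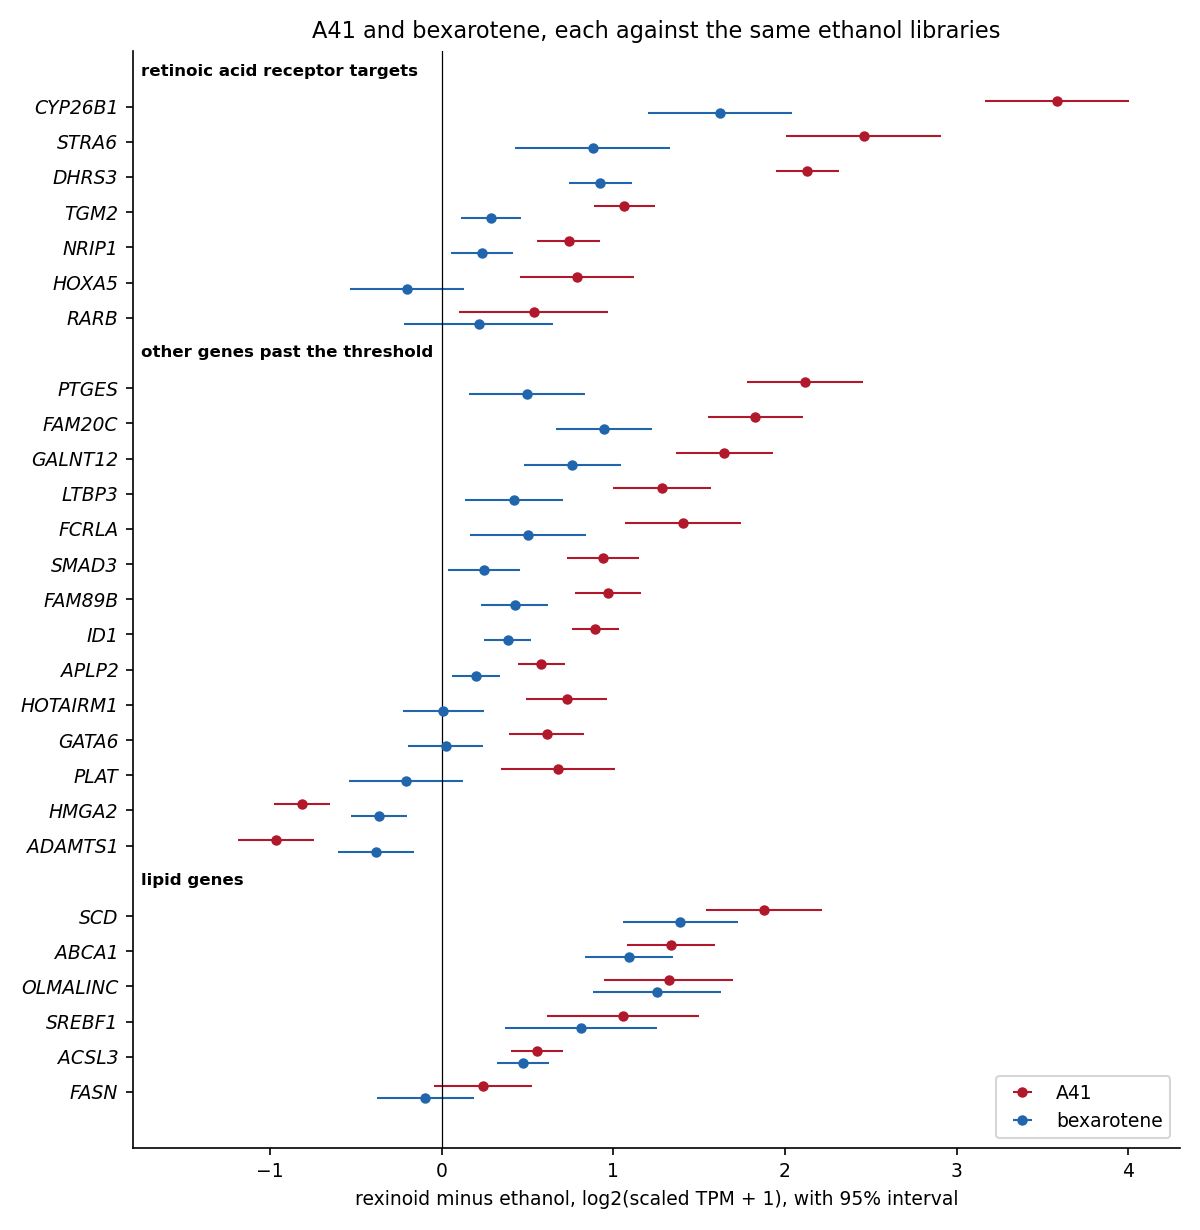
Difference from the same ethanol libraries (x axis, log2(scaled TPM + 1), bars are 95% intervals) with A41 (red) and with bexarotene (blue) for named genes in 3 groups. CYP26B1 stands at 3.58 with A41 and 1.62 with bexarotene, while the intervals of ABCA1, OLMALINC and ACSL3 overlap.

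The other coded rexinoids were given at the same dose and for the same time; the names of the deposited tables give the A98 libraries the code A90, so A98 is used here as the titles have it. Against the same bexarotene libraries, A34 and A80 each had 0 genes past the threshold in limma's test (950 and 1108 at an unadjusted p under 0.05, 5.2% and 6.06%), and A98 had 1 (0.00547%), the short noncoding RNA gene SNORA70G. For CYP26B1, A34, A80 and A98 minus bexarotene were 0.32 (-0.10 to 0.74), -0.10 (-0.51 to 0.32) and 0.04 (-0.38 to 0.46). A34 minus bexarotene was 0.22 (0.03 to 0.40) for DHRS3, 0.42 (0.14 to 0.69) for FAM20C and 0.52 (0.19 to 0.86) for SCD. Each had a limma adjusted p of 0.914. For PTGES and TGM2 it was 0.19 (-0.14 to 0.53) and 0.07 (-0.10 to 0.25). A41 minus the mean of A34, A80 and A98, a contrast that leaves out bexarotene but shares the A41 libraries, was 1.88 ± 0.16 for CYP26B1 and 1.11 ± 0.07 for DHRS3. In that contrast 40 genes were higher (0.219%) and 16 lower (0.0876%) with A41, 0.307% of genes tested in all, among them 20 of the 21 genes, all but ADAMTS1 (limma adjusted p = 0.0709).

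STX16-NPEPL1 had the largest difference of all and is uncertain. It is the annotated readthrough of STX16 and NPEPL1 (chr20:58651434-58715410, plus strand) and overlaps both. It had 166, 439 and 235 TPM with A41, against 0.587, 0.244 and 0.503 TPM with bexarotene (7.49 ± 1.29, limma adjusted p = 0.0346). One A34 library, replicate 3, held 332 TPM while the other A34 libraries held 0.757 and 1.47 TPM. Its partners did not follow: STX16 had 50.4, 44.5 and 48.9 TPM with A41 and 47.1, 44.7 and 43.8 TPM with bexarotene, and NPEPL1 had 3.92, 2.02 and 5.89 TPM with A41 and 7.99, 5.54 and 4.72 TPM with bexarotene. How the authors' assembly shared reads among the 3 overlapping genes was not tested, and the call was lost in each fit that omitted 1 library.

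**Figure D5:**
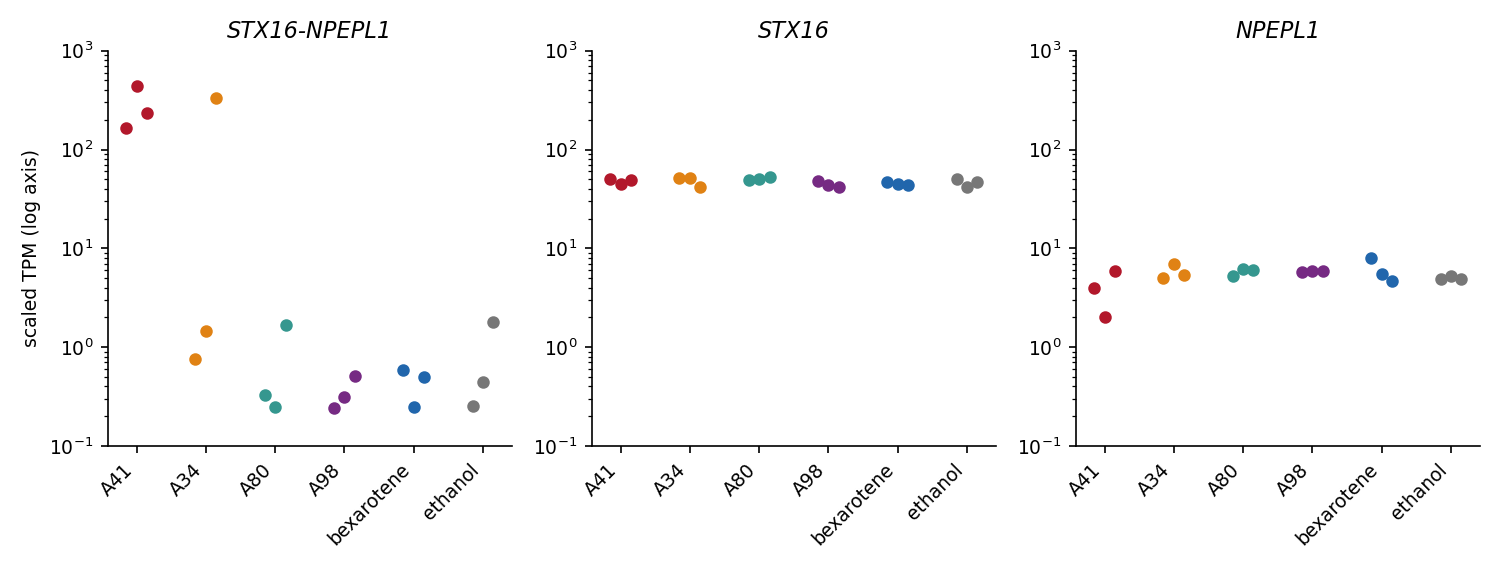
Scaled TPM (log axis) of STX16-NPEPL1, STX16 and NPEPL1 in all 18 libraries, 3 dots per group. STX16-NPEPL1 lies between 166 and 439 in the A41 libraries and at 332 in 1 A34 library, and STX16 between 44.5 and 50.4 with A41 and between 43.8 and 47.1 with bexarotene.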

How the data were processed

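Total RNA from U87 cells was depleted of ribosomal RNA and sequenced, per the labels' protocols. STAR, StringTie and MultiQC and the build GRCh38 are named in the submitters' processing notes; their versions, the annotation and the strand handling were not given in the sources. The deposited tables hold, per the file headers, coverage (a signal of read depth), FPKM and TPM for each gene. They hold no counts, so no count model was used.

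TPM rows were summed by gene ID and scaled by median of ratios over 16349 genes (factors 0.419 to 1.21). The 18269 genes that reached 1 TPM in 3 or more libraries were tested with limma 3.58.1 in R 4.3.3, with a trend, on log2(scaled TPM + 1) of all 18 libraries in 6 groups (12 residual degrees of freedom), with two-sided p-values adjusted by Benjamini-Hochberg across the genes tested and a threshold of 0.05. FPKM was an alternative unit; the ceiling of coverage over FPKM gave aligned gigabases (1.31 to 3.89 over the 18 libraries), and counting error per gene is unknown. No libraries were identical; correlations of log values ran from 0.951 to 0.981 within groups and from 0.953 to 0.978 between A41 and bexarotene libraries. The fit was tested on simulated data.

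The comparison and the gene lists were chosen with earlier results of these data known. Genes named are those past the threshold, up to 15 in each direction by difference with at least 2 scaled TPM in the higher group and a span of at least 300 bases, members of the retinoid, LXR and receptor lists past it, 26 genes named whatever their p, and up to 4 of each other list; APLP2, FAM89B and list members short of the threshold were named after their values were seen. Same-numbered libraries of A41 and bexarotene deviated with correlations of -0.34, -0.36 and 0.18, and the numbers were not taken as pairs. The highest correlation, 0.45, joined A41 replicate 2 and bexarotene replicate 1, which are rich in ribosomal RNA, so these values cannot show whether numbers pair libraries. ANGPTL4 fell from replicate 1 to replicate 3 in every group, from 138 to 52.2 TPM with A41 and from 81.0 to 33.5 TPM with bexarotene.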

Additional observations from a re-analysis of the deposited data

How the results depend on the processing

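All 21 genes kept their direction under each of the 19 alternatives run. The counts of genes higher and lower with A41, 19 and 2 as reported, moved as follows. The higher count was 1 with TPM as deposited, where the median of all genes shifted to -0.11 and STX16-NPEPL1 alone passed, 8 with ribosomal RNA genes removed, 8 without the libraries rich in ribosomal RNA and 3 with only the 6 libraries in the fit. The lower count was 0 under each of those settings and 0 in limma without trend, 5 with no filter on low values, 4 with at least 5 TPM in 3 libraries and 4 with scaled FPKM. The setting with ribosomal RNA genes removed also left out median of ratios scaling, with TPM brought to the same total per library. It tested 18679 genes, with a median of -0.03, and cannot separate the removal from the change of scaling. Leaving out each library in turn gave 7 to 13 genes higher and 0 to 3 lower. With the replicate block, by the numbers of the titles, 26 genes were higher and 5 lower, and by the numbers of the deposited tables, 24 and 4; the numbers were not shown to pair the libraries. Pseudocounts of 0.1 and 0.5 and upper quartile scaling gave 17, 19 and 21 higher. Over the 21 genes and the alternatives, 232 results kept their side of the threshold and 165 fell below it. The causes were not tested. With 3 libraries per group, the median half-width of the 95% interval was 0.36 over all genes tested.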

Other observations

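A further 15 genes had an adjusted p from 0.05 to 0.1 in limma's test of A41 against bexarotene, chosen for mention after their values were seen. BGLAP encodes osteocalcin and shares its locus with an annotated readthrough gene, so its reads are uncertain. It had 8.22, 5.44 and 6.73 TPM with A41, against 1.28, 0.00937 and 0.161 TPM with bexarotene (limma adjusted p = 0.0626). NRP2, a neuropilin, had 149, 134 and 127 TPM with A41, against 86.6, 80.3 and 72.7 TPM with bexarotene (limma adjusted p = 0.0905), and ITGB3, an integrin chain, had 213, 179.6 and 168 TPM with A41, against 125, 115 and 107 TPM with bexarotene (limma adjusted p = 0.0946). SPRY2, a feedback inhibitor of growth factor signalling, had 33.7, 39.1 and 35.1 TPM with A41, against 49.95, 57.6 and 51.8 TPM with bexarotene (limma adjusted p = 0.0593). The groups did not overlap in any of these 4 genes. HGF, a growth factor named whatever its p, missed that range, with 3.78, 3.58 and 4.22 TPM with A41 against 5.57, 5.81 and 6.01 TPM with bexarotene (limma adjusted p = 0.125).

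Of 20 S phase genes, 0 passed limma's threshold (1 at an unadjusted p under 0.05; median 0.08), and of 20 genes of G2 and mitosis, 0 passed it (0 at an unadjusted p under 0.05; median 0.06), against a median of -0.0054 over all genes tested.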
